A study of Schizosaccharomyces pombe with 12 samples.

Results

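Wild-type ribosome footprints were set against wild-type total RNA in the fission yeast Schizosaccharomyces pombe, to describe how cells in mid-log growth divide their ribosomes among genes, and where the RNA count and the footprint count of a gene agree or disagree. The members were the wild-type libraries, 3 of footprints and 3 of total RNA, which is 6 of the 12 libraries of the series. The delta4dus libraries were not used here. Both tables hold the same 5136 rows, 1 per transcript, and rows were matched by their identifier. Both groups share the wild-type genotype, growth to mid-log phase and collection by fast filtration with no cycloheximide; the strain background is not stated. For footprints, lysate of cryogenically milled cells was digested with RNase I, monosomes were collected from a sucrose gradient, and fragments of 28 to 32 nt were cut from a gel. Total RNA came from a part of the harvest frozen before milling. The labels do not say whether the letters A, B and C mark separate cultures, so the spread between libraries may be technical.

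A ribosome that translates an mRNA shields a short stretch of it from nuclease, and sequencing these footprints counts ribosomes on each coding sequence. The share of all footprints on a gene is therefore a measure of how much of the cell's translation goes to that protein, while footprints per length of coding sequence track the number of protein copies made. In fast-growing yeasts most protein synthesis is known to serve the ribosome itself, the translation factors and the enzymes that ferment glucose. Total RNA sequenced beside the footprints is normally used to tell mRNA amount from ribosome loading.

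The wild-type footprint libraries A, B and C held 1725344, 601969 and 750887 counts, and the total RNA libraries held 2033890, 1986580 and 1900650 counts. Values are counts scaled to the column sum as CPM, and are given as mean ± SD over 3 libraries, and ratios are log2 of footprints over total RNA with the standard error (SE). A count of 3, taken as the limit that a count of 0 allows, equals 1.74 to 4.98 CPM in the footprint libraries and 1.48 to 1.58 CPM in the total RNA libraries, for counting error only. Across the 5062 rows with enough counts to test, Spearman's rho between replicates was 0.967 to 0.979 within footprints and 0.969 to 0.970 within total RNA. Over the 1206 rows with at least 100 footprint CPM, the median SD was 6.12% of the mean. Of 14 mating and meiosis genes, 1 was above the median row in footprints and mfm3 and spo4 were at 0; they summed to at most 156 footprint CPM. Of 5 nitrogen starvation genes, 3 were above the median row, and the list summed to 181 to 228 footprint CPM. All 5 stationary phase and stress genes were above the median row, with a sum of 1935 to 2002 footprint CPM, of which gpd1, a glycerol 3-phosphate dehydrogenase, held 1199 CPM. The order was the reverse in total RNA. There the mating and meiosis list summed to 4162 to 4379 CPM, nitrogen starvation to 528 to 578, and stationary phase and stress to 24.2 to 33.1.

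Footprints were spread over more rows than total RNA counts. This describes deposited row counts and cannot be read as mRNA amounts per gene. Rows that overlap an exon of an opposite-strand gene, 37.4% of rows, held 80.2% ± 0.24 of total RNA counts. Which gene those counts came from was not tested. The row with most counts held 2.75% ± 0.11 of footprints and 8.81% ± 0.15 of total RNA. The 10 highest rows of each library held 16.9% ± 0.54 of footprints and 30.0% ± 1.19 of total RNA, and the 500 highest rows held 76.1% ± 0.71 of footprints and 85.8% ± 0.89 of total RNA. A share of 50% was reached with 126.7 ± 5.51 rows in footprint libraries, against 42.7 ± 4.73 rows in total RNA libraries, and a share of 90% with 1438 ± 42.9 and 689 ± 42.5 rows. The libraries of the assays did not overlap on any of these measures. The two-sided exact permutation test gave p = 0.1 for each, which is the smallest p that 3 libraries against 3 can give and holds for every exact p of 0.1 below.

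**Figure D1:**
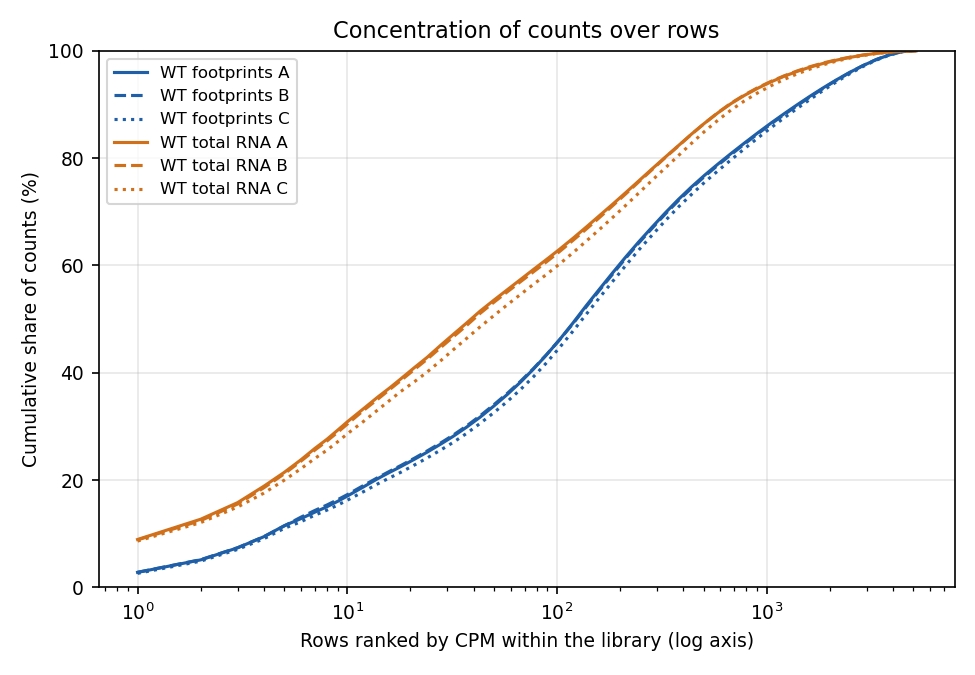
Cumulative share of counts (%) against the number of rows, ranked by CPM within each library (log axis), for 3 wild-type footprint and 3 wild-type total RNA libraries. The total RNA curves start at 8.64% to 8.93% and lie above the footprint curves, which start at 2.62% to 2.82%.

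Rows were sorted by gene name and annotated product into 29 function classes, which took 1943 of the 5136 rows (37.8%) and 77.7% ± 0.37 of footprints, against 22.3% ± 0.37 of total RNA counts. The 143 rows of cytoplasmic ribosomal proteins, 2.78% of rows, held 27.6% ± 0.24 of footprints and 0.152% ± 0.008 of total RNA counts. Glycolysis and fermentation came next with 22 rows, 12.6% ± 0.43 of footprints and 0.0927% of total RNA counts. The 14 rows of translation elongation and termination held 9.35% ± 0.13 of footprints and 0.0226% of total RNA counts. Initiation factors held 2.12% ± 0.05 of footprints, ribosome biogenesis 2.08% ± 0.08 and tRNA ligases 1.28% ± 0.04. With ribosomal proteins and elongation and termination, these 5 translation classes summed to 42.4% ± 0.30 of footprints in 373 rows. They held 1.88% ± 0.06 of total RNA counts. Translation and glycolysis together took 55.1% ± 0.60 of footprints in 7.69% of rows. The 3193 rows in no class held 22.3% ± 0.37 of footprints and 77.7% ± 0.37 of total RNA counts. The exact permutation p was 0.1 for each class, except p = 0.2 for one carbon, vitamin and sulfur metabolism (0.683% of footprints and 0.711% of total RNA counts) and for the Tf2 retrotransposons (0.0596% of footprints and 0.0472% of total RNA counts).

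**Figure D2:**
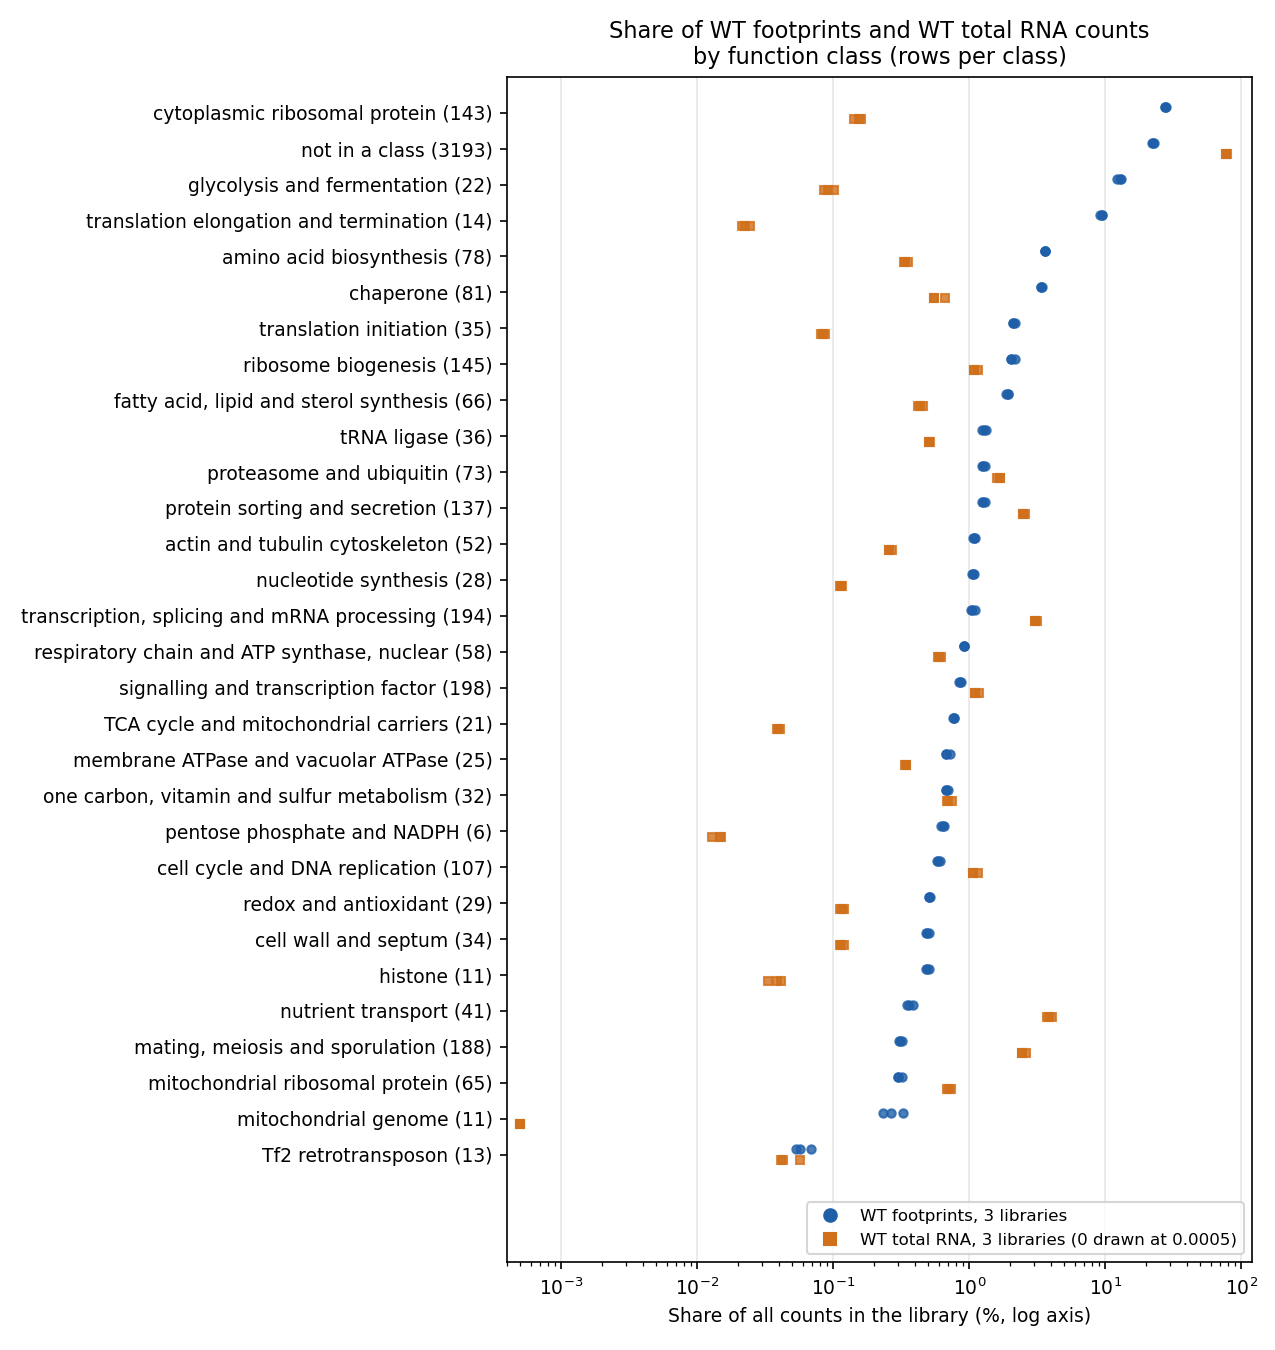
Share of all counts (%, log axis) of each function class, with the number of rows in parentheses; circles are the 3 wild-type footprint libraries and squares the 3 wild-type total RNA libraries, and the mitochondrial genome, at 0 in total RNA, is drawn at 0.0005. Ribosomal proteins take 27.6% of footprints and 0.152% of total RNA counts, while rows in no class take 22.3% of footprints and 77.7% of total RNA counts.

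Ribosomal proteins, the proteins that make up the large and small subunits with ribosomal RNA, filled 63 of the 100 rows with most footprints. No single one dominated. The leading members were rpl301, which encodes L3 of the large subunit, with 4736, 4791 and 4834 footprint CPM in A, B and C, against 2.95, 6.04 and 7.37 total RNA CPM, and cpc2, the RACK1 protein of the small subunit, with 4655, 4620 and 4533 footprint CPM, against 5.90, 6.04 and 6.31 total RNA CPM. Every footprint library was far above every total RNA library for both rows, and together they held 3.40% ± 0.03 of the class. In edgeR's quasi-likelihood test, 142 of the 143 rows were higher in footprints (57.6% of all tested rows were) and 1 was lower (31.7% of all tested rows were), with a median log2 ratio of 9.63 against 1.42 over all tested rows. The exception was rpl1603, a gene of the uL13 family, with 149, 163 and 198 footprint CPM, against 680, 679 and 736 total RNA CPM (log2 ratio -2.05, SE 0.11, adjusted p = 1.63e-12). The rpl1603 row overlaps apl1, a gene on the opposite strand, over 2515 bases of exon.

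Each ribosome holds 1 copy of nearly every ribosomal protein, and fission yeast encodes most of them in 2 or 3 genes. Summed by family, the footprint density of the 80 families had a median of 7208 CPM per kb of coding length, with quartiles of 6236 and 8442, against a median of 30.4 CPM per kb over all rows. Of the 80 families, 78 lay within 2-fold of the family median, as did all 68 families with a coding length of at least 300 bases. The 2 families above were rpl41 (24762 ± 2407 CPM per kb) and rps30 (14569 ± 426 CPM per kb), whose coding sequences are 78 and 186 bases long. Over the families density fell with coding length (Spearman's rho -0.58), and over all rows it did too (rho -0.34, 5035 rows). These are descriptions, and a length bias of the footprint count was not tested. The lowest family was rpp0, with 3776 ± 89.6 CPM per kb. Rpp0 is the base of the ribosomal stalk and carries more than 1 copy each of the small acidic proteins P1 and P2, which had 8393 ± 298 and 8590 ± 333 CPM per kb. The ratio of P2 to P0 was 2.28 ± 0.14. P1 and P2 are sums over 3 genes each and P0 is 1 gene, and how shared reads were assigned was not tested. Families of 2 or 3 genes had a median of 7457 CPM per kb, against 6294 for families of 1 gene. The 47 large subunit families had a median of 6717 CPM per kb and the 33 small subunit families 7653 CPM per kb.

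Elongation factors were the most heavily translated single genes after tdh1. The genes tef101, tef102 and tef103 encode near-identical forms of eEF1A, which brings aminoacyl-tRNA to the ribosome, and reads of one may be counted for another. Tef103 had 23277, 23501 and 22760 footprint CPM in A, B and C, against 15.7, 13.6 and 17.4 total RNA CPM. Tef101 averaged 22250 ± 301 footprint CPM and 20.9 ± 0.27 total RNA CPM. Tef102 had 20460, 20484 and 19795 footprint CPM, against 9.34, 85.6 and 8.42 total RNA CPM, so its total RNA mean rests on replicate B. The eEF2 genes eft201 and eft202, whose product moves the ribosome along by a codon, had 5295 ± 105 and 5444 ± 110 footprint CPM. Tef3, the fungal factor eEF3, had 7347, 7148 and 7144 footprint CPM, against 6.88, 5.54 and 4.74 total RNA CPM. Release factors were far lower, with 487 ± 9.81 footprint CPM for erf1, which reads stop codons, and 700.3 ± 23.8 for its partner sup35. The rescue factors dom34 and hbs1, which act on stalled ribosomes, had 59.4 ± 14.8 and 47.9 ± 7.46 footprint CPM. All 14 rows of the class were higher in footprints, where 57.6% of all tested rows were (median log2 ratio 9.16). With each other scaling of the libraries, TMM and DESeq2's size factors, 13 were higher. Of all 5062 tested rows, 2306 and 2203 were higher with these scalings.

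Initiation factors were led by tif1, the helicase eIF4A, with 3195 ± 89.4 footprint CPM and 3.36 ± 1.35 total RNA CPM, and by the helicase sum3, with 2154 ± 27.6 footprint CPM and 3.88 ± 0.76 total RNA CPM. Of the 35 rows, 33 were higher in footprints and 1 was lower, where 57.6% and 31.7% of all tested rows were (median log2 ratio 5.81). Ribosome biogenesis factors, which process and assemble ribosomal RNA, were individually modest: gar2, a nucleolin, led with 1144 ± 57.8 footprint CPM and 14.1 ± 6.22 total RNA CPM, and the median row of the class had 99.6 footprint CPM. Of 145 such rows, 125 were higher in footprints and 12 lower (57.6% and 31.7% over all tested rows). Of the 36 tRNA ligases, which charge tRNAs, 22 were higher and 12 lower, shares near the 57.6% and 31.7% of all tested rows. Their median log2 ratio was 5.64, against 1.42 over all tested rows.

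Glycolysis showed a step in footprint density along the pathway. The first 3 enzymes, hexokinase 2 (hxk2), glucose 6-phosphate isomerase (pgi1) and phosphofructokinase (pfk1), had 1415 ± 45.8, 1117 ± 3.05 and 1079 ± 58.5 CPM per kb. All later enzymes were at 5344 CPM per kb or more. Aldolase (fba1), which splits the 6-carbon sugar, had 11782 ± 368 CPM per kb, and triosephosphate isomerase (tpi1) had 6480 ± 119. Glyceraldehyde 3-phosphate dehydrogenase (tdh1) had 27208 ± 1109 CPM per kb, the highest density of all rows with a mean of at least 100 counts. Below it pgk1 had 7925 ± 478, gpm1 had 11684 ± 500 and enolase (eno101) had 15116 ± 528 CPM per kb. Pyruvate kinase (pyk1) had 5344 ± 159 CPM per kb. The fermentation enzymes that turn pyruvate into ethanol had 5544 ± 174 CPM per kb for pyruvate decarboxylase (pdc101) and 9292 ± 326 for alcohol dehydrogenase (adh1).

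Tdh1 was the row with most footprints, with 28096, 28212 and 26214 CPM in A, B and C, against 10.8, 12.6 and 8.94 total RNA CPM (log2 ratio 11.30, SE 0.12, adjusted p = 4.23e-22). Every footprint library was above every total RNA library. Eno101 had 20681, 19888 and 19290 footprint CPM, against 100.3, 15.6 and 19.5 total RNA CPM. Its log2 ratio was 8.77 (SE 0.37) with all libraries and 10.15 without total RNA replicate A, and both left eno101 far higher in footprints. Of the 22 rows of the class, 17 were higher in footprints, 4 were lower and 1 did not pass the test (57.6% higher and 31.7% lower over all tested rows). The members that were lower included the minor isozymes pdc201 (4.98 ± 0.35 footprint CPM and 296 ± 11.4 total RNA CPM), pdc202 (2.57 ± 0.80 and 212 ± 7.04) and eno102 (6.42 ± 2.20 and 82.2 ± 15.0).

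Outside translation and glycolysis, the largest footprint shares went to building blocks and protein folding. Amino acid biosynthesis took 3.62% ± 0.02 of footprints in 78 rows, led by ilv5, an enzyme of branched-chain amino acid synthesis, with 4693 ± 55.7 footprint CPM and 2.88 ± 0.37 total RNA CPM, and by the methionine synthase met26, with 3549 ± 84.2 footprint CPM and 5.87 ± 1.85 total RNA CPM. Chaperones took 3.38% ± 0.02 in 81 rows. Their leader was sks2, an Hsp70 that binds nascent chains at the ribosome, with 6468, 6532 and 6118 footprint CPM, against 8.85, 8.05 and 6.84 total RNA CPM. Among amino acid enzymes 67 rows were higher in footprints and 8 lower, and among chaperones 56 of 81 were higher and 20 lower; over all tested rows 57.6% were higher and 31.7% lower.

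Several smaller classes depended on 1 or 2 genes. The proton pump pma1, which sets the membrane potential of the cell, had 4067 ± 236 footprint CPM and 8.60 ± 0.62 total RNA CPM. Pma1 and vma2 made up 64.7% ± 1.06 of the footprints of 25 membrane and vacuolar ATPase rows. The malic enzyme mae2 had 3249 ± 109 footprint CPM and 7.11 ± 2.69 total RNA CPM, and the ADP/ATP carrier anc1 had 530 ± 39.3 and 2.51 ± 1.25. Together mae2 and anc1 made up 49.3% ± 1.10 of the footprints of the TCA cycle and mitochondrial carrier class. Actin (act1), with 3414, 3336 and 3319 footprint CPM, against 10.8, 3.52 and 7.37 total RNA CPM, and cofilin (adf1) made up 40.0% ± 0.79 of the cytoskeleton class. In contrast, the 2 leading rows of the signalling and transcription factor class, hmo1 and zip1, made up 5.54% ± 0.24 of its footprints.

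Among the 100 rows with most footprints 4 fell in no class: lcp1, SPAC27E2.11c, car2 and oga1, named here because their values stood out. Lcp1, annotated as a cyclin L family protein, ranked 6th with 12140, 16335 and 12371 footprint CPM in A, B and C, against 11.8, 13.1 and 10.00 total RNA CPM. Its footprint replicates spread more (SD 2358 CPM) than those of the rows next to it in rank. Counts per row do not show where in the lcp1 row its footprints lie. SPAC27E2.11c, a protein annotated as found only in Schizosaccharomyces, had 3832 ± 97.9 footprint CPM. Car2, an ornithine transaminase, had 2280 ± 33.4 and oga1, annotated as the stm1 protein, had 2196 ± 109 footprint CPM.

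Subunits of other complexes were also compared by footprint density, which sums paralogs that encode the same subunit. The 14 subunits of the 20S proteasome, the proteolytic core, lay between 194 ± 12.6 and 315 ± 33.6 CPM per kb, all within 2-fold of their median, and the highest was 1.63 ± 0.17 times the lowest. Their total RNA counts spread much more, with 306 ± 43.6 CPM for pre8 and 1.22 ± 1.70 CPM for pre10. These are CPM with no length scaling, and the pre10 mean is below the mean floor of 1.52 CPM. As described below, total RNA of a row did not follow its own footprints, so this spread cannot be read as one of mRNA amounts. The 8 subunits of the CCT chaperonin, which folds actin and tubulin, lay between 193 ± 18.7 and 271 ± 28.3 CPM per kb (ratio 1.40 ± 0.03). The 3 subunits of the initiation factor eIF2 differed by up to 1.43 ± 0.07. Alpha and beta tubulin differed by 1.31 ± 0.12, the fatty acid synthase subunits fas1 and fas2 by 1.45 ± 0.04, and the ATP citrate lyase subunits acl2 and acl1 by 1.25 ± 0.06. The subunits btf3 and egd2 of the nascent polypeptide-associated complex differed by 1.07 ± 0.10, and pdb1 and pda1 of pyruvate dehydrogenase by 1.10 ± 0.18, with footprint library A on the other side of 1 in both.

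Some complexes were less even. The highest subunit was 2.25 ± 0.53 times the lowest in F1 ATP synthase, 2.22 ± 0.46 in the COPI coat and 2.05 ± 0.45 in the Arp2/3 complex. All subunits of these were within 2-fold of the median of their complex. The 8 subunits of the V1 part of the vacuolar ATPase differed by up to 4.29 ± 0.60, with vma10, a stalk subunit present in several copies, highest at 408 ± 9.68 and vma5 lowest at 96.3 ± 14.5 CPM per kb. In ribonucleotide reductase, which makes deoxynucleotides, the small subunit suc22 was 2.66 ± 0.35 times the large subunit cdc22. Among the histones, H3 (4440 ± 107 CPM per kb) and H4 (4022 ± 191) were above H2A (2456 ± 142) and H2B (2109 ± 46.5), although a nucleosome holds them in equal number. The footprint count of repeated, near-identical histone genes depends on how shared reads were assigned.

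**Figure D3:**
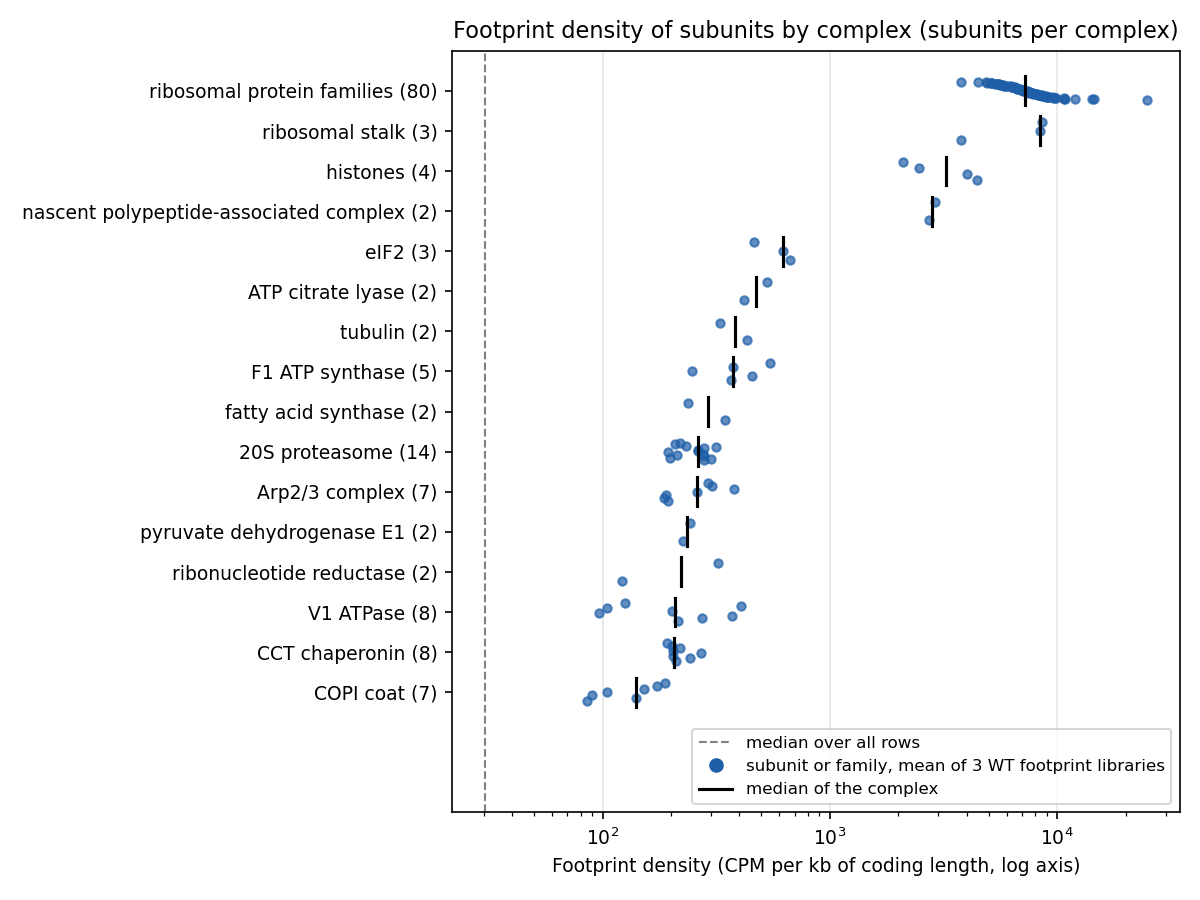
Footprint density (CPM per kb of coding length, log axis) of the subunits of each complex, with the number of subunits in parentheses; points are means of 3 wild-type footprint libraries, black bars the median of the complex, and the dashed line the median over all rows. Ribosomal protein families centre on 7208 CPM per kb and the 14 proteasome subunits lie between 194 and 315 CPM per kb.

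Across rows, the counts of the assays did not go together. Over the 5062 tested rows Spearman's rho between mean footprint CPM and mean total RNA CPM was -0.25, and it was -0.24, -0.25 and -0.25 in replicates A, B and C. It was -0.126 with CPM per kb of coding length and -0.723 over rows with a mean of at least 50 counts. That mean covers both assays, so a row low in either assay passes only if it is high in the other. The filter by itself lowers rho, and the -0.723 cannot measure how far the assays disagree. Rows of a pair share the gene and its length but no library, and rho is given as a description. Of the 100 rows with most footprints and the 100 with most total RNA, 0 were shared. The 100 rows with most footprints held 45.1% of footprints and 0.0979% of total RNA counts, and their median total RNA level was 4.48 CPM, against 12.1 CPM over all rows. The 100 rows with most total RNA held 0.373% of footprints and 61.6% of total RNA counts, and their median footprint level was 21.9 CPM, against 36.02 CPM over all rows.

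In the quasi-likelihood test 2918 rows were higher in footprints and 1607 lower, so 89.4% of rows passed. All footprint libraries were above all total RNA libraries in 57.3% of tested rows, and all were below in 31.5%. The log2 ratio ran from -16.88 to 14.21, with 442 rows over 100-fold higher and 205 over 100-fold lower in footprints, and 882 rows (17.4%) within 2-fold. Scaling sets the zero of this axis. TMM factors moved the median of all rows by -1.23 and DESeq2's size factors by -1.46 on the log2 scale, which gave 2306 rows higher and 2167 lower, and 2203 higher and 2266 lower. The share of higher rows among those called was 64.5%, 51.6% with TMM and 49.3% with DESeq2's factors. Ribosomal proteins, glycolysis and elongation kept a median above 5 under all 3 scalings. The medians of the transcription, splicing and mRNA processing class (1.00) and of the cell cycle and DNA replication class (0.20) were below 0 with both others, and that of mitochondrial ribosomal proteins (1.41) was -0.07 with DESeq2's factors.

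**Figure D4:**
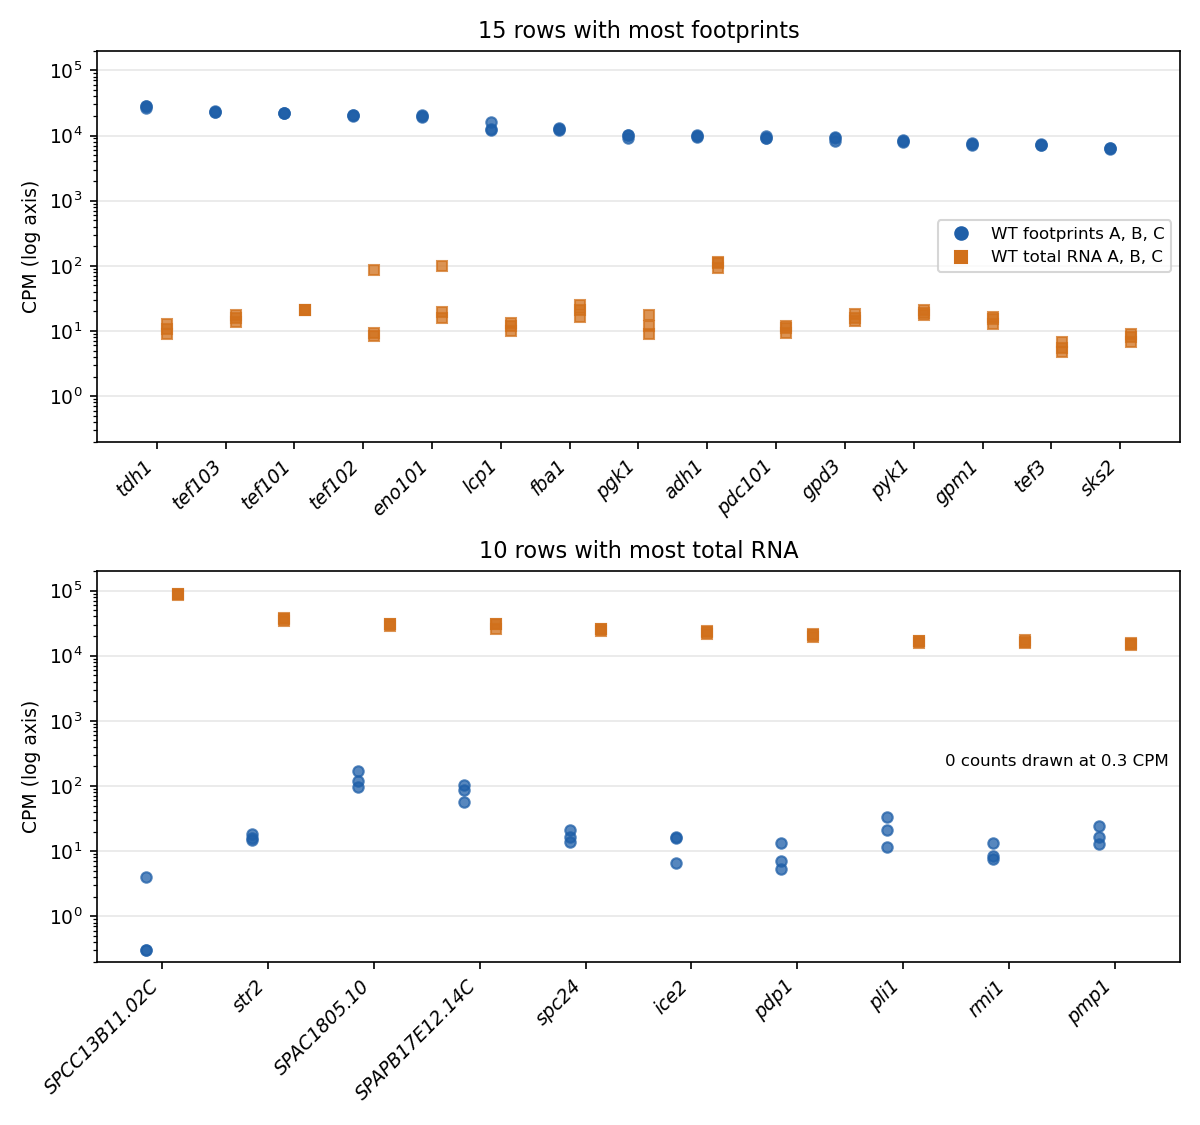
CPM (log axis) in each wild-type footprint library (circles) and each wild-type total RNA library (squares), for the 15 rows with most footprints (top) and the 10 rows with most total RNA (bottom), with 0 drawn at 0.3. In the top panel every footprint value is above every total RNA value, and in the bottom panel every footprint value is below every total RNA value.

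The rows with most total RNA had few footprints, and several lie opposite heavily translated genes. They were named after their values were seen. Of the 100 rows with most total RNA, 41 had as leading opposite-strand gene one of the 500 rows with most footprints. The share of all rows with such a gene was not counted, so the 41 is a description only. The highest was SPCC13B11.02c, an uncharacterized gene, with 4.06, 0 and 0 footprint CPM in A, B and C, against 89328, 88635 and 86403 total RNA CPM. SPCC13B11.02c has no annotated exon overlap, and adh1 lies within 1000 bases of it on the opposite strand, with 9784 ± 343 footprint CPM and 106 ± 11.1 total RNA CPM. Str2, a siderophore-iron transporter, had 15.07, 18.27 and 15.98 footprint CPM, against 37773, 35927 and 34451 total RNA CPM (log2 ratio -11.13, SE 0.12, adjusted p = 4.23e-22). Among the genes that str2 overlaps on the opposite strand is the ribosomal protein gene rpl6, with 3000 footprint CPM and 2.70 total RNA CPM.

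Several of the next rows had the same arrangement. SPAC1805.10 had 128 ± 36.6 footprint CPM and 30273 ± 1093 total RNA CPM opposite rps2602, and SPAPB17E12.14c had 83.1 ± 24.6 and 28889 ± 2618 opposite rpl1802. Spc24, a kinetochore subunit, had 17.3 ± 3.74 and 25211 ± 1006 opposite tif512, an eIF5A gene with 2135 footprint CPM and 3.69 total RNA CPM. Ice2 had 12.97 ± 5.49 and 22691 ± 1229 opposite rps23, and pdp1 had 8.52 ± 4.21 and 20480 ± 1159 opposite rps902. In each of these the footprints sat on one gene of the pair and the total RNA counts on the other. The rmi1 row did not have it: with 9.72 ± 3.14 footprint CPM and 16365 ± 781 total RNA CPM, its leading opposite-strand gene was myh1, with 26.5 footprint CPM and 245 total RNA CPM.

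Exon overlap with an opposite-strand gene was found for 1919 rows (37.4%), and these rows held 24.2% ± 0.30 of footprints and 80.2% ± 0.24 of total RNA counts (exact permutation p = 0.1 for total RNA). The 3188 rows without one held 75.5% ± 0.33 of footprints and 18.6% ± 0.17 of total RNA counts. Median levels were 33.4 footprint CPM and 45.6 total RNA CPM in rows with overlap, and 38.0 and 6.97 in rows without. Of the tested rows with overlap, 765 (40.0%) were higher and 944 (49.3%) lower in footprints, while of those without, 2139 (68.5%) were higher and 652 (20.9%) lower. Of the 100 rows with most total RNA, 96 had such an overlap. The other 4, named because they are few, were SPCC13B11.02c, the pheromone gene map2, ero12 and SPAC27E2.13, which has no match in the reference.

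The 34 rows opposite a ribosomal protein gene, counted by the opposite gene that gave most signal, held 0.138% ± 0.011 of footprints and 25.4% ± 1.28 of total RNA counts, with medians of 26.6 footprint CPM and 3909 total RNA CPM. None of these 34 is itself a ribosomal protein gene. Seen from the other side, 15 of the 100 rows with most footprints overlap an opposite-strand row. In 14 of the 15 the opposite row had more total RNA than the row itself, with a median of 2299 CPM on the opposite row against 3.69 CPM on the row itself.

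A partner signal was computed for each overlapped row, as the footprint density of each opposite-strand gene times the length of its overlap, summed over such genes. Over the 1914 tested rows with overlap, total RNA of the row had a Spearman's rho of -0.24 with the row's own footprints and of 0.70 with the partner signal. Own footprints and partner signal had a rho of -0.12. Where the partner signal was under 1 CPM, the median row had 42.4 footprint CPM and 8.49 total RNA CPM (324 rows). With a signal of 10 to 100 CPM it had 29.9 footprint CPM and 158 total RNA CPM (712 rows), and with over 1000 CPM it had 21.7 footprint CPM and 8541 total RNA CPM (20 rows). The RNA medians rose in each of the 5 bins while the footprint medians fell. Rows and partners share the genome position, the overlap length enters both the signal and the row, and rho is a description. For 1225 rows with 1 partner and at least 100 overlapped bases, total RNA per overlapped kb had a rho of 0.45 with the partner's footprints per kb and of -0.10 with the row's own.

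**Figure D5:**
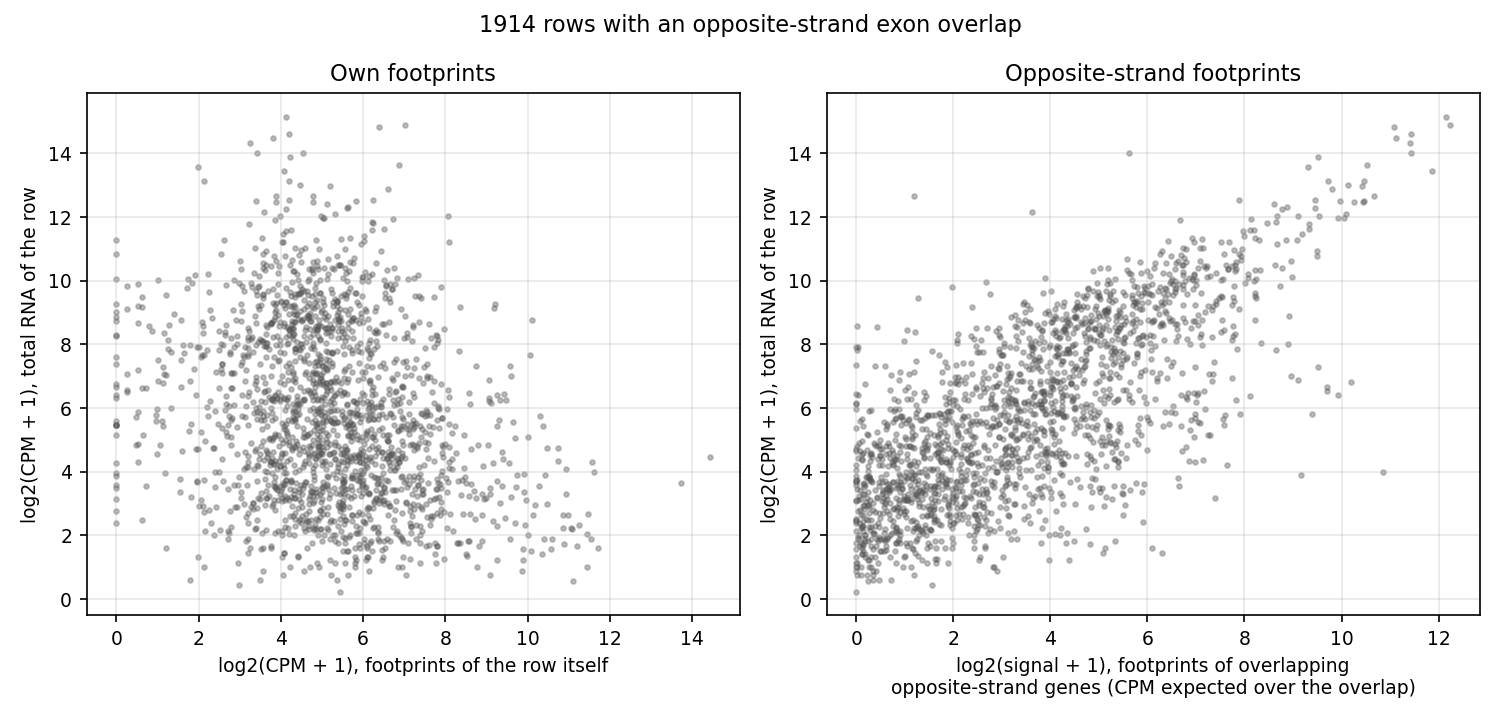
Total RNA of a row, log2(CPM + 1), against its own footprints (left) and against the footprint signal of the opposite-strand genes that overlap it (right), for 1914 tested rows, means of 3 wild-type libraries per assay. The left cloud has a Spearman's rho of -0.24 and the right one a rho of 0.70.

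The same comparison was made for neighbours without overlap. For 1721 rows with no overlap but an opposite-strand gene within 1000 bases, total RNA had a rho of -0.05 with the highest footprint level among those genes and of -0.25 with the row's own footprints. The 1400 rows with no opposite-strand gene within 1000 bases also had a rho of -0.25 with their own footprints. The protocol names a strand-specific kit for the footprint libraries and none separately for total RNA, and the strand setting of the read counting is not given in the sources used here. Which strand the total RNA counts came from was not tested, so the ratio is given here as footprints over deposited total RNA counts, not as translational efficiency. A count on a row that overlaps an opposite-strand gene cannot be assigned to either gene from these tables alone.

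Few rows were abundant in both assays. Among the 500 highest of both assays were 4 rows, named because they are few. Atp1, the alpha subunit of the mitochondrial ATP synthase, had 584, 606 and 578 footprint CPM, against 611, 569 and 662 total RNA CPM, and the libraries overlapped (log2 ratio -0.06, SE 0.09, adjusted p = 0.519). With TMM and with DESeq2's factors atp1 passed the test as lower in footprints, at -1.33 and -1.53. The atp1 row overlaps dpp1 on the opposite strand over 2672 bases. Ade8, a purine enzyme, had 584 ± 49.1 footprint CPM and 565 ± 25.2 total RNA CPM, rds1 had 325 ± 22.5 and 582 ± 7.59, and SPAC17G6.03, a phosphatase, had 1100 ± 177 and 436 ± 7.45. Of the 100 rows with most footprints, the smallest log2 ratio was that of the cyclophilin ppi1, with 2677, 2638 and 2626 footprint CPM, against 128, 138 and 121 total RNA CPM (4.36, SE 0.09, adjusted p = 2.87e-19).

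Mating, meiosis and sporulation was the class with the lowest ratio. Of its 177 tested rows 34 were higher in footprints, 111 lower and 32 did not pass (57.6% higher and 31.7% lower over all tested rows), with a median log2 ratio of -2.89 that stayed below 0 under all 3 scalings. The median row of its 188 members had 2.71 footprint CPM and 22.4 total RNA CPM, and 37.8% of the members have an opposite-strand exon overlap, against 37.4% of all rows. Several of the most negative ratios were meiotic genes. Mug37 had 0 footprint counts in all 3 libraries and 2518, 2391 and 2520 total RNA CPM, so it was at least 693-fold higher in total RNA at a floor of 3 counts per library. Mug37 overlaps sar1 on the opposite strand over 575 bases. Map2, which encodes the mating pheromone P-factor, had 0, 1.66 and 0 footprint CPM, against 2079, 1959 and 1947 total RNA CPM, and has no annotated opposite-strand overlap. The other rows of the class among the 12 most negative ratios, mpf1, mde5 and mde7, had 0 footprint counts. They overlap opposite-strand genes over 2403, 1640 and 2286 bases of exon. The protein kinase genes spo4, needed for meiosis, and mde3 were sorted into the signalling and transcription factor class and are not among these members. Spo4 was at 0 in footprints and at 664 ± 38.7 total RNA CPM, with no annotated opposite-strand overlap. Mde3 was at 0 and at 515 ± 62.8 CPM, and overlaps sec31 on the opposite strand over 1680 bases.

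The 11 rows with SPMIT identifiers, of the mitochondrial genome, were the only class without total RNA counts. They held 0.274% ± 0.046 of footprints and 0 total RNA counts in all 3 libraries. SPMIT.06 had 1306, 1925 and 1528 footprint CPM in A, B and C and was at least 1043-fold higher in footprints at the floor of 3 counts per library. SPMIT.01 had 252, 332 and 272 footprint CPM. These 2 rows made up 68.1% ± 1.43 of the class.

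The authors' deposited table gives a log2 translational efficiency of the control for 4878 rows, of which 4873 were tested here. Over these rows its Spearman's rho with the log2 ratio above was 0.9999, and the authors' value was lower by a median of 1.43 (difference -1.43 on the log2 scale). In the authors' deposited table tdh1 stands at 9.86 and tef103 at 9.09.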

How the data were processed

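Each deposited table holds whole-number counts, 1 row for a transcript and 1 column for a library; the submitters' processing notes name Trimmomatic 0.36, Bowtie2 2.4, HISAT2 and featureCounts with the ASM294v2 build; no strand setting is given in the sources used here. The authors' deposited table gives log2 translational efficiencies, with no method per the file headers. Counts were used as deposited, and 0 columns were left unmapped. The reference (ASM294v3) is another build, so it served only for names, strands, exon overlaps and coding lengths; 5107 of 5136 rows matched, and no sequence or coordinate is given.

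CPM are counts scaled to the column sum. Rows with at least 10 counts over the 6 libraries and at least 1 CPM in 3 libraries were tested with edgeR 4.0.16 in R 4.3.3 (glmQLFit and glmQLFTest, 3 against 3, two-sided, column sums as library sizes, no block, Benjamini-Hochberg over all 5062 rows, threshold 0.05), after a check on simulated counts. Class shares, concentration and correlations used Python 3.11.15, pandas 2.3.3, numpy 2.4.6 and scipy 1.17.1; plots used matplotlib 3.10.9 with a pseudocount of 1. The alternatives were TMM, DESeq2 1.42.0 and its size factors, other filters, a replicate block, leaving out each library, and others in the closing section. An opposite-strand overlap is at least 1 shared exon base.

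The classes, complexes and tests were chosen with earlier results of these data known, and the classes were refined from the annotation after the files were read. A row that matches several classes (72 rows) went to the first in a fixed order. Named rows were the 15 with most footprints, the 10 of highest density, the 12 largest ratios each way (mean of at least 20 counts), the 2 leading members per class, extremes among the 100 rows with most footprints, and reference genes. Letters were compared as pairs, and deviations of the same letter from the assay means correlated at 0.0034, -0.0127 and 0.0116. Total RNA of a row did not follow its own footprints, so these values cannot show whether letters pair the libraries. The main fit had no block. Replicates differed by more than sampling noise (chi-square per degree of freedom 1.48 to 4.57). A planned description of amino acid composition was not run because protein sequences were not used here. The exception among opposite-strand pairs of the rows with most footprints is not reported here.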

Additional observations from a re-analysis of the deposited data

How the results depend on the processing

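The count of rows higher in footprints was 2918, with a range of 2755 to 2942 when each library was left out in turn, and that of rows lower was 1607, with a range of 1472 to 1583. A mean of at least 50 counts left 1377 rows higher and 1208 lower, of 2708 tested. With the replicate block 2920 rows were higher and 1597 lower, and the labels do not say whether the letters pair the libraries. DESeq2 called 2832 higher and 1523 lower, and a 2-fold minimum left 2733 and 1423. Among named rows, the tRNA dihydrouridine synthase genes reversed, dus1 to -0.33 with TMM and -0.56 with DESeq2's size factors, dus2 to -0.61 and -0.83, and ste13 to -0.052 with DESeq2's size factors. Without total RNA replicate B the log2 ratio of tef102 was 11.14, against 9.19, and without total RNA replicate A that of rpl701 was 9.17, against 6.13. Per kb of coding length, ribosomal proteins held 47.2%, glycolysis 8.72% and elongation 5.23% of the summed density; with the class order reversed elongation held 8.76% of footprints. Per kb, the 10 highest rows held 12.4%, the 500 highest 82.7%, and 97.3 rows held 50%. The Spearman correlation between assays was -0.199 over rows with any count, -0.723 over rows with a mean of at least 50 counts, and -0.126 per kb. The filter at 50 counts takes the mean over both assays, which by itself lowers the correlation. In rows overlapped by at least 100 bases, the Spearman correlation of total RNA was -0.206 with own footprints and 0.67 with the partner signal; over at least 50% of the row it was -0.171 and 0.53. Rows with no overlap, an alternative chosen after seeing the data, gave -0.249 and -0.0472, and -0.0294 for convergent and -0.0185 for divergent neighbours alone. The causes were not tested. Low total RNA counts limit single ratios: rpl1701 rests on 3 total RNA counts and rpl31 on 5, and wild-type footprint library B is the shallowest.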

Other observations

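In 4 enzyme or chaperone families 1 member carried nearly all footprints. Eno101 held 99.97% ± 0.01 of enolase footprints and eno102 held 0.032%, pdc101 held 99.9% ± 0.01 of the footprints of 4 pyruvate decarboxylase genes, and adh1 held 99.1% ± 0.10 of those of 3 alcohol dehydrogenase genes. The Hsp70 gene ssa2 held 97.9% ± 0.28 of footprints and ssa1 held 2.09%. Other sets were shared among members: eft202 held 50.7% ± 0.14 and eft201 49.3%, hxk2 held 80.3% ± 0.70 and hxk1 19.7%, tdh1 held 75.5% ± 0.40 and gpd3 24.5%, and the 14-3-3 genes rad24 and rad25 held 72.8% ± 0.43 and 27.2%. Alpha tubulin was split between nda2, with 60.4% ± 2.33, and atb2, with 39.6%. Reads shared by near-identical copies could move such splits, which was not tested. These sets were chosen after the data were seen.

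Among the 8 hexose transporters, which bring glucose into the cell, ght8 held 50.0% ± 0.67 of footprints and ght5 36.4% ± 1.00. Ght8 had 708, 791 and 762 footprint CPM in A, B and C, against a mean of 20.4 ± 3.92 total RNA CPM, and ght5 had 512, 566 and 566, against 117 ± 10.6. Ght6 had 38.7 ± 11.1 footprint CPM and 612 ± 11.5 total RNA CPM, and ght7 had 0 footprint counts.

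Of the 53 ribosomal protein families with 2 genes, 40 had copies within 2-fold of each other in footprints (median ratio 1.51). In 3 families the higher copy exceeded the lower over 5-fold: rpl3001 over rpl3002 (7.04 ± 0.59), rpl3401 over rpl3402 (6.95 ± 0.19) and rpl101 over rpl102 (6.13 ± 0.25).

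Total RNA of single rows could rest on 1 library. Cct3, a CCT subunit, had 2.46, 2.01 and 482 total RNA CPM in A, B and C beside 324 ± 10.8 footprint CPM, and ent1 had 1.48, 902 and 1.58 total RNA CPM.

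The 4 tRNA dihydrouridine synthase genes, whose products modify tRNA, differed in level. The median row had 36.02 footprint CPM and 12.1 total RNA CPM. Dus1 had 43.3 ± 6.64 footprint CPM and 22.5 ± 0.60 total RNA CPM, dus2 had 21.5 ± 6.19 and 14.7 ± 0.58, dus3 had 84.7 ± 4.33 and 23.5 ± 1.59, and dus4 had 16.7 ± 4.00 and 65.5 ± 3.59.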
